A study of Homo sapiens with 15 samples.

Results

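Cholesterol synthesis, the sterol-sensing SREBP system and cholesterol transport were followed here through 31 genes in Reh cells, a human B-cell precursor leukaemia line. The 31 genes were named from the known pathway, with earlier results of these data known, and are a small share of the 33367 genes in the count table. They comprise 19 synthesis enzymes, 5 SREBP factors and regulators, and 7 genes of intracellular transport, uptake control and efflux. All 31 were detected well enough to be tested in both experiments, among 14242 genes tested in the ETV6 experiment and 13464 in the ERG experiment.

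Reh cells carry the ETV6::RUNX1 fusion and have lost the normal ETV6 allele, so both experiments started from cells without normal ETV6. In the ETV6 experiment, Reh populations were transduced with a vector that doxycycline switches on. It encoded wild-type ETV6 with a V5 tag, the R399C form of ETV6 with the same tag, or tagBFP, a blue fluorescent control protein. R399C replaces an arginine with a cysteine in the ETS DNA-binding domain of ETV6, a transcriptional repressor. Doxycycline was given to all 3 populations, the control included, at 500 ng/ml over 48 h. For the ERG experiment, Reh populations with doxycycline-inducible dCas9-KRAB, a catalytically dead Cas9 fused to a repressor domain, received a guide against the promoter of the ETS factor ERG (sgERG) or a non-targeting guide (sgCtrl). These cells were sorted on the guide's fluorescent reporter, and both groups were then induced at the same 500 ng/ml, over 72 h. Each of the 5 groups had 3 RNA-seq libraries of transduced populations of this 1 line. The labels do not say whether the libraries of a group came from separate cultures, so the p-values measure only the spread between these libraries, which may be technical.

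Cells build cholesterol from acetyl-CoA through mevalonate, farnesyl diphosphate, squalene and lanosterol. When sterols run low in the endoplasmic reticulum, SCAP carries the SREBP precursors to the Golgi, where proteases release the active transcription factors, and INSIG proteins hold SCAP back when sterols are plentiful. SREBP-2 drives the synthesis enzymes, with NF-Y bound at CCAAT boxes and Sp1 at GC boxes as its usual partners. When sterols are in excess, oxysterols activate the LXR receptors, which raise the exporters ABCA1 and ABCG1 and the ubiquitin ligase MYLIP, which sends receptors for lipoprotein uptake to degradation.

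The promoter windows of the members show how the genes differ in the letters that SREBP and its partners are known to use. RefSeq promoter windows on GRCh38.p14, from 250 bases before to 50 bases after the transcription start, were found for 27 of the 31 members. ACAT2, FDFT1, SQLE and ABCG1 had no entry. Both strands were searched for a sterol response element core (CACNCCAC), the NF-Y box (CCAAT), the GC box (GGGCGG), an ETS core (CCGGAA) and an E-box (CACGTG), and overlapping matches were counted. The stretches below lie before the gene's start in GENCODE 29, are written 5′ to 3′ on the gene's strand, and have matches to the sterol response element core and the CCAAT box in capitals, with GTGGNGTG and ATTGG as their reverse complements. INSIG1 (chr7:155297628-155297775, plus strand) and SREBF2 (chr22:41832855-41833078, plus strand) are shown because they hold both motifs. HMGCS1 (chr5:43313513-43313662, minus strand), MSMO1 (chr4:165327419-165327622, plus strand) and LSS (chr21:46228825-46229024, minus strand) are shown because they are among the enzymes that differed most between the ETV6 forms, and ABCA1 (chr9:104928238-104928405, minus strand) because it is the exporter that changed in both experiments.
INSIG1: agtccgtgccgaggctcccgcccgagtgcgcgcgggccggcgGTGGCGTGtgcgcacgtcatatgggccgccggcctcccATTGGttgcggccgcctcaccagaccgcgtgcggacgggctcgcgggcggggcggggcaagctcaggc
SREBF2: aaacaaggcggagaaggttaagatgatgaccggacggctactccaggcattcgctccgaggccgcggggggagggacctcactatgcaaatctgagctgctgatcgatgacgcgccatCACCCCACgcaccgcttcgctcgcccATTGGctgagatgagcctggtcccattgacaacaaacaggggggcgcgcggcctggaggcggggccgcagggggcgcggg
HMGCS1: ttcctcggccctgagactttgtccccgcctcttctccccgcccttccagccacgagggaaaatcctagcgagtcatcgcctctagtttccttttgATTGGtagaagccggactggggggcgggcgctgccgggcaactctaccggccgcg
MSMO1: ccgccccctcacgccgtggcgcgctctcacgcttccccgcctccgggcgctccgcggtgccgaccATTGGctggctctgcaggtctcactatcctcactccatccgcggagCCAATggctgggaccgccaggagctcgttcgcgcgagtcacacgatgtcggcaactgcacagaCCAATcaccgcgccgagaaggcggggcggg
LSS: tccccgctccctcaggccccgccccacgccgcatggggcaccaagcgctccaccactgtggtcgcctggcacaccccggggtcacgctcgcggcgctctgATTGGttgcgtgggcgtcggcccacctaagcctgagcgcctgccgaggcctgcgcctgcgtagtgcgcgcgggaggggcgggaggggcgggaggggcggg
ABCA1: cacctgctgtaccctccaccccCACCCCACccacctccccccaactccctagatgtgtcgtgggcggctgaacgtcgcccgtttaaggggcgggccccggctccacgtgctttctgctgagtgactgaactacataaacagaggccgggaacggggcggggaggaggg

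The sterol response element core matched in 4 of the 27 member windows, those of INSIG1, SREBF2, ABCA1 and SC5D, and in 5.74% of all 27305 promoter windows of the same length. In INSIG1, SREBF2 and ABCA1 the match lay before the start, and in SC5D after it. CCAAT was found in 17 of the 27 windows, 12 of them among the 16 enzymes with a window, against 35.7% of all windows. GGGCGG was in 25 of the 27, against 44.6% of all. CCGGAA, the letters that many ETS factors bind, was in 8 of the 27, against 17.6% of all, namely IDI1, FDPS, CYP51A1, TM7SF2, INSIG2, STARD4, MYLIP and NR1H2. For IDI1 the stretch before the RefSeq start (chr10:1056705-1056954, minus strand) lies upstream of the gene as counted (1039152 to 1049170) and does not touch it. The ETS cores and the lack of CCAAT in the IDI1 window therefore describe that distant start, not the start of the counted gene. CACGTG was in 5 of the 27, against 7.43% of all. The matches describe letters in these windows and not bound sites. The share of all windows was not limited to genes detected in these cells, as the members were, so it is not a matched background.

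**Figure D1:**
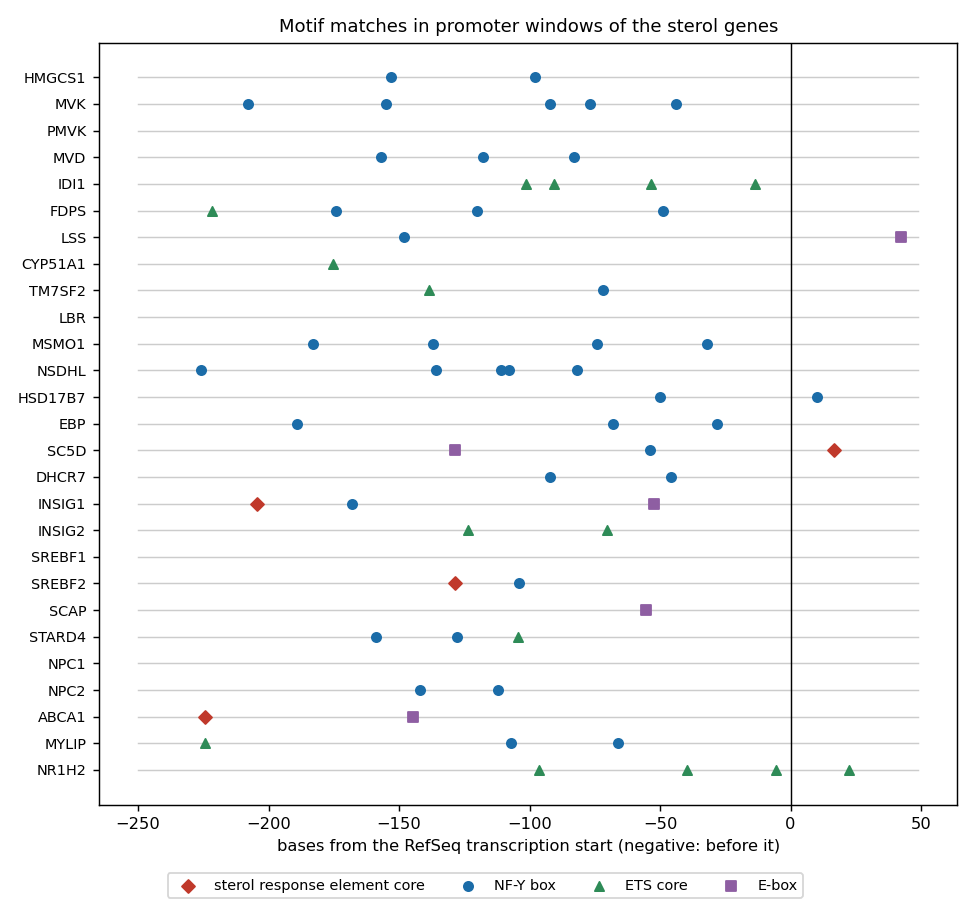
Positions of motif matches in the promoter windows of the 27 members with a RefSeq entry; the x axis gives bases from the RefSeq transcription start, each row is 1 gene and each symbol 1 match on either strand, with GC boxes left out. CCAAT boxes lie in 17 of the 27 windows, almost all before the start, and the sterol response element core in 4. The RefSeq start used for IDI1 lies upstream of the gene as counted.

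Estimated read totals ran from 22040338 to 34046795 per library in the ETV6 experiment and from 31881225 to 52481351 in the ERG experiment. ETV6 reached 465.0, 497.7 and 495.0 CPM (read counts scaled to library size with TMM factors) with the wild-type vector and 356.4, 383.8 and 379.6 with R399C, from 6.08, 6.01 and 5.48 in tagBFP libraries. ERG fell from 529.5, 527.0 and 517.5 CPM in sgCtrl libraries to 104.2, 109.6 and 101.5 in sgERG libraries (log2 fold change -2.32, SE 0.04, adjusted p = 9.2e-10). ETV6 was lower with sgERG as well, at 6.29, 7.15 and 6.23 CPM against 14.6, 12.4 and 12.5 with sgCtrl. With any 1 library left out its log2 fold change was between -1.07 and -0.92. Since Reh cells have lost the normal ETV6 allele, these counts in the ERG experiment are not a measure of normal ETV6. B-lineage markers were present, with CD79A at 508.3 to 677.4 TPM (abundance scaled for transcript length and library size) and PAX5 at 110.8 to 246.2 over the 15 libraries, while VPREB1 was listed at 0 in all of them. The T-cell genes CD3D and CD2 and the erythroid genes HBB, HBA1 and ALAS2 were at 0, and LYZ, CD14 and FCN1 of the myeloid list stayed at or below 1.3 TPM. Not all markers of other lineages were near 0: the myeloid gene CSF1R was at 4.89 to 22.7 TPM and the stromal gene COL1A1 at 5.02 to 33.1. sgERG replicate 3 stood apart from the other 2 sgERG libraries: the chi-square of its counts over genes, divided by the degrees of freedom, was 14.7 and 12.9, against 2.89 to 6.94 for the remaining pairs of replicates. Among these, the pairs with tagBFP replicate 3 were at 6.5 and 5.98, against 3.16 for the other tagBFP pair. Pairs with sgCtrl replicate 2 were at 6.13 and 6.36, against 3.71 for the other sgCtrl pair. In such bulk RNA, fewer cells of a type and less RNA per cell cannot be told apart.

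Both forms of ETV6 were first set against the same 3 tagBFP libraries, so these 2 comparisons share their controls. With wild-type ETV6 the synthesis enzymes were lower: 12 of 19 fell and none rose at an adjusted p under 0.05 (edgeR quasi-likelihood test, Benjamini-Hochberg over all genes), where 18.9% of all genes were called lower and 17.6% higher. The median log2 fold change of the enzymes was -0.22, against -0.001 for all genes tested. None of the 5 regulators and none of the 7 transport and efflux genes passed the test. With ETV6 R399C the enzymes that were called went the other way: 11 of 19 rose and none fell. Called or not, 16 of the 19 had a log2 fold change above 0 and 3 below it. Of the regulators 3 of 5 rose and 1 fell, and 4 of 7 transport and efflux genes rose. Over all genes 18.8% were called higher and 22.1% lower. The enzymes' median was 0.18 with R399C, against -0.001 for all genes. All changes were small, the largest being 1.48-fold with wild-type ETV6 (DHCR7) and 1.42-fold with R399C (INSIG1), and the median absolute log2 change over all genes was 0.16 and 0.17.

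**Figure D2:**
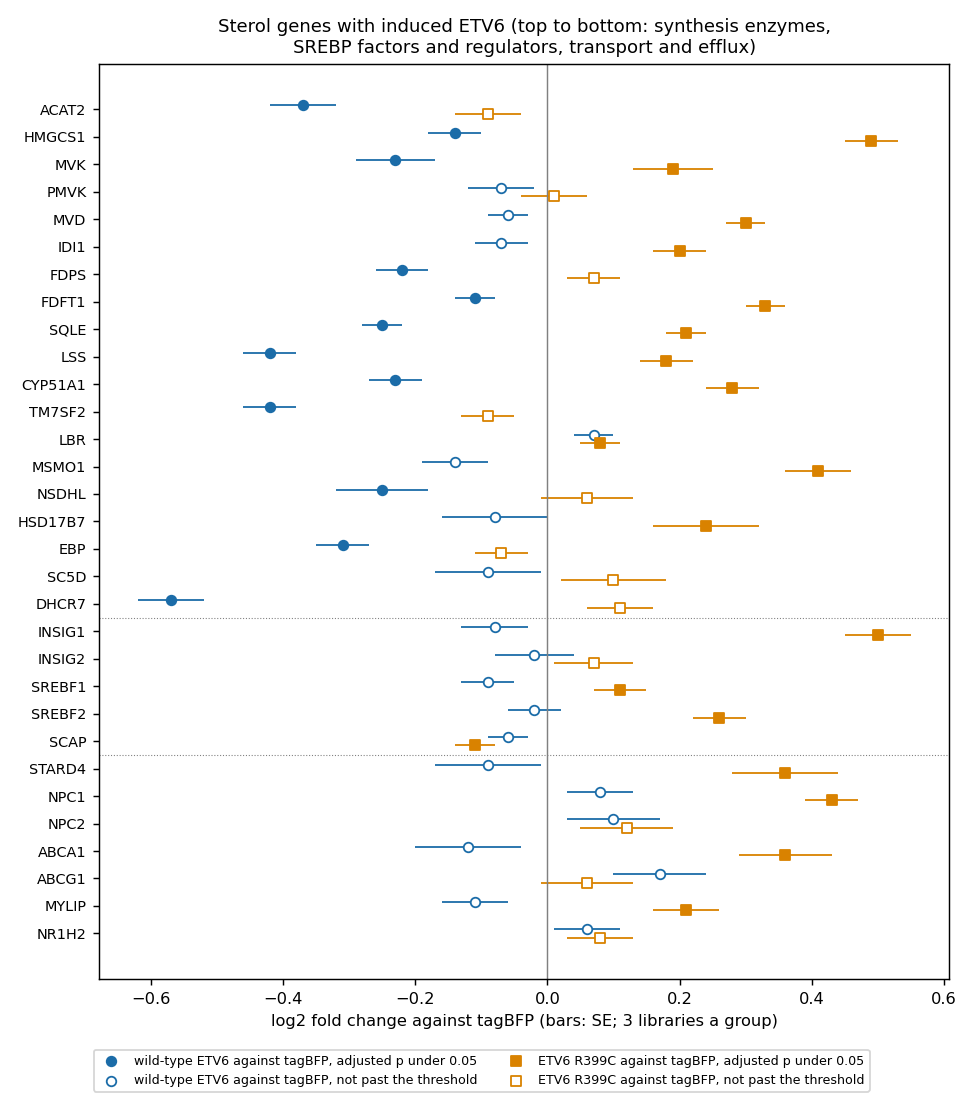
The x axis gives the log2 fold change against tagBFP of each of the 31 members, with bars for its SE (3 libraries a group); circles are wild-type ETV6, squares R399C, and filled symbols have an adjusted p under 0.05. Filled circles lie left of 0 and only among the 19 enzymes, where 12 fell with wild-type ETV6, while all filled squares but SCAP lie right of 0.

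Summed over the 19 enzymes, the level was 1567, 1542 and 1522 TPM in the tagBFP libraries. It was 1418, 1309 and 1378 TPM with wild-type ETV6 and 1920, 1887 and 1818 TPM with R399C. The 3 groups did not overlap. The 5 regulators summed to 587.4 ± 41 TPM (SD, n = 3) with tagBFP, 553.3 ± 22.5 with wild-type ETV6 and 741.5 ± 36.1 with R399C.

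The first 7 enzymes lead to farnesyl diphosphate, the precursor also used for prenylation, ubiquinone and dolichol. With wild-type ETV6 4 of them fell, and with R399C 4 rose. HMGCS1, the synthase that makes HMG-CoA (chromosome 5, 43289395 to 43313512, minus strand), was at 254.4, 261.1 and 270.5 CPM in tagBFP libraries, 250.3, 225.0 and 236.8 with wild-type ETV6 and 376.9, 371.6 and 352.8 with R399C. All wild-type libraries lay below the tagBFP libraries and all R399C libraries above them. The log2 fold change was -0.14, SE 0.04, adjusted p = 0.018 with wild-type ETV6 and 0.49, SE 0.04, adjusted p = 3.7e-06 with R399C. Mevalonate kinase MVK was the other early enzyme that moved both ways, at 33, 30.9 and 29.5 CPM with tagBFP, 27.5, 24.5 and 28.1 with wild-type ETV6 and 34.9, 37.5 and 34.3 with R399C. Its groups did not overlap (log2 fold change -0.23, SE 0.06, adjusted p = 0.0158, and 0.19, SE 0.06, adjusted p = 0.0291). ACAT2, the thiolase that joins acetyl-CoA units, was the early enzyme that fell most with wild-type ETV6, at 32.5, 29.3 and 32 CPM against 38.6, 42.7 and 39.8 (log2 fold change -0.37, SE 0.05, adjusted p = 1.8e-04). With R399C ACAT2 was at 38.2, 37.1 and 38.2 CPM, just under the lowest tagBFP library, and did not pass the test (log2 fold change -0.09, SE 0.05, adjusted p = 0.175).

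FDPS, which builds farnesyl diphosphate, fell in the wild-type comparison, at 188.1, 170.4 and 180.5 CPM against 204.8, 207.1 and 214.7 (log2 fold change -0.22, SE 0.04, adjusted p = 7.7e-04). With R399C its libraries were at 224.3, 216.9 and 214.3 CPM and overlapped the tagBFP libraries (log2 fold change 0.07, adjusted p = 0.184). MVD, the decarboxylase that forms isopentenyl diphosphate, was at 62.5, 64.4 and 64.8 CPM with tagBFP and 80.3, 77.7 and 78.4 with R399C, above every control library (log2 fold change 0.30, SE 0.03, adjusted p = 3.1e-05). Its wild-type libraries, at 59.8, 60.4 and 63.6 CPM, overlapped the controls (log2 fold change -0.06, adjusted p = 0.199). IDI1, the isomerase of the next step, behaved likewise: 204.9, 212.2 and 208.6 CPM with R399C against 176.9, 174.9 and 192.1 (log2 fold change 0.20, SE 0.04, adjusted p = 0.00169), and 180.8, 167.6 and 171.1 CPM with wild-type ETV6 (log2 fold change -0.07, adjusted p = 0.23). PMVK, the phosphomevalonate kinase, passed neither test, with log2 fold changes of -0.07 and 0.01.

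Of the 12 enzymes from squalene synthase onward, 8 fell with wild-type ETV6 and 7 rose with R399C. The largest fall was that of DHCR7, the reductase of a last step of cholesterol synthesis (chromosome 11, 71428193 to 71452868, minus strand). It was at 103.9, 101.1 and 96.8 CPM with tagBFP and 69.8, 62.7 and 71.2 with wild-type ETV6, so that the highest wild-type library lay well below the lowest control (log2 fold change -0.57, SE 0.05, adjusted p = 3.7e-06). With R399C it was at 112.3, 106.4 and 106.1 CPM, above all controls by a margin that did not pass the test (log2 fold change 0.11, SE 0.05, adjusted p = 0.0958). LSS, which folds squalene epoxide into lanosterol (chromosome 21, 46188141 to 46228824, minus strand), was at 194.1, 194.7 and 185.6 CPM with tagBFP, 149.7, 134.1 and 146.2 with wild-type ETV6 and 218.9, 219.8 and 212.8 with R399C. Again the 3 groups did not overlap (log2 fold change -0.42, SE 0.04, adjusted p = 8.8e-06, and 0.18, SE 0.04, adjusted p = 0.00288).

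SQLE, the squalene epoxidase and a flux-limiting step of the pathway, was at 117.6, 120.3 and 119.7 CPM with tagBFP, 104.7, 96.9 and 99.1 with wild-type ETV6 and 135.4, 140.0 and 137.2 with R399C. The order of the 3 groups was the same as for LSS, without overlap (log2 fold change -0.25, SE 0.03, adjusted p = 1.1e-04, and 0.21, SE 0.03, adjusted p = 3.5e-04). CYP51A1, the lanosterol demethylase, was at 118.1 ± 5.21 CPM (SD, n = 3) with tagBFP, 100.6 ± 2.82 with wild-type ETV6 and 143.3 ± 3.67 with R399C, without overlap. It fell with wild-type ETV6 and rose with R399C (log2 fold change -0.23, SE 0.04, adjusted p = 5.8e-04, and 0.28, SE 0.04, adjusted p = 1.2e-04). FDFT1, the squalene synthase, was at 315.0, 314.9 and 314.2 CPM with tagBFP, 298.7, 282.4 and 294.7 with wild-type ETV6 and 408.6, 392.1 and 382.3 with R399C. It rose with R399C (log2 fold change 0.33, SE 0.03, adjusted p = 8.5e-06) and fell slightly with wild-type ETV6 (-0.11, SE 0.03, adjusted p = 0.0159).

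MSMO1, NSDHL and HSD17B7 form the complex that removes methyl groups from lanosterol products. MSMO1 was at 53.5, 50.1 and 48.1 CPM with R399C against 39.5, 36.3 and 38.5 with tagBFP, all libraries higher (log2 fold change 0.41, SE 0.05, adjusted p = 8.3e-05), and at 36.3, 34.7 and 33 with wild-type ETV6, which reached the lowest control (log2 fold change -0.14, adjusted p = 0.0666). NSDHL went the other way around: it fell with wild-type ETV6, at 23.5, 20 and 21.2 CPM against 25.5, 24.2 and 27.3 (log2 fold change -0.25, SE 0.07, adjusted p = 0.014), and did not pass the test with R399C (log2 fold change 0.06). HSD17B7, the member with the lowest CPM in this experiment, rose with R399C, at 13.9, 13.6 and 13.5 CPM against 12, 11.1 and 11.6 (log2 fold change 0.24, SE 0.08, adjusted p = 0.0293).

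TM7SF2 and LBR can both reduce the product of CYP51A1, and they did not move together. TM7SF2 was at 27.7, 26.2 and 28.7 CPM with wild-type ETV6 against 36.5, 36.6 and 37.1 with tagBFP, all lower (log2 fold change -0.42, SE 0.04, adjusted p = 1.8e-05), and at 34.6, 35 and 33.9 with R399C (log2 fold change -0.09, adjusted p = 0.118). LBR, which is also the lamin B receptor of the nuclear envelope, was at 327.7, 325.3 and 337.2 CPM with tagBFP, 356.2, 338.4 and 347.2 with wild-type ETV6 and 341.8, 349.5 and 357.0 with R399C. Only the R399C difference passed the test (log2 fold change 0.08, SE 0.03, adjusted p = 0.0367, against 0.07, SE 0.03, adjusted p = 0.0646 with wild-type ETV6). EBP, the sterol isomerase, fell with wild-type ETV6, at 57.9, 55.4 and 56.4 CPM against 68.3, 69.2 and 72.7 (log2 fold change -0.31, SE 0.04, adjusted p = 5.8e-05), and its R399C libraries overlapped the controls (log2 fold change -0.07). SC5D, the desaturase before DHCR7, passed neither test (log2 fold change -0.09 and 0.10).

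Among the regulators, INSIG1, an SREBP target that retains SCAP in the endoplasmic reticulum (chromosome 7, 155297776 to 155310235, plus strand), was at 396.8, 385.9 and 359.3 CPM with tagBFP and 554.7, 551.6 and 512.0 with R399C. Every R399C library was higher, by 1.42-fold (log2 fold change 0.50, SE 0.05, adjusted p = 1.4e-05). With wild-type ETV6 it was at 383.3, 338.3 and 360.6 CPM, within reach of the controls (log2 fold change -0.08, SE 0.05, adjusted p = 0.257). SREBF2, which encodes SREBP-2 (chromosome 22, 41833079 to 41907308, plus strand), was likewise highest with R399C, at 400.9, 395.4 and 369.1 CPM with tagBFP, 388.0, 370.1 and 395.1 with wild-type ETV6 and 474.9, 472.3 and 453.3 with R399C. Only R399C lay apart (log2 fold change 0.26, SE 0.04, adjusted p = 1.6e-04, against -0.02, SE 0.04, adjusted p = 0.779 with wild-type ETV6).

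SREBF1, which encodes SREBP-1 and serves mainly fatty acid synthesis, rose slightly with R399C, at 490.3, 482.0 and 473.6 CPM against 457.2, 459.8 and 419.2 (log2 fold change 0.11, SE 0.04, adjusted p = 0.0467). Its wild-type libraries were at 425.8, 395.5 and 432.3 CPM and overlapped the controls (log2 fold change -0.09, adjusted p = 0.105). SCAP was the 1 member lower with R399C, at 46.5, 48.1 and 47.8 CPM against 51.1, 51.4 and 51 (log2 fold change -0.11, SE 0.03, adjusted p = 0.0264). INSIG2, the second retention protein, stayed between 18.1 and 20.8 CPM in all 9 libraries and passed neither test.

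**Figure D3:**
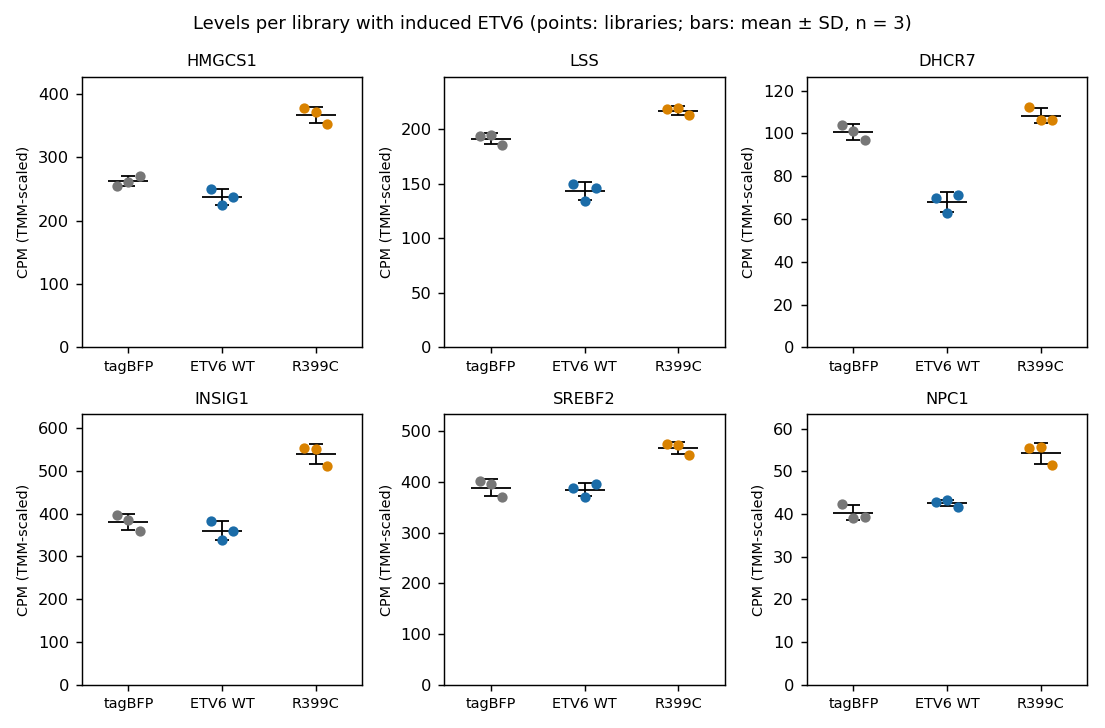
Level of 6 members in each library of the ETV6 experiment: the y axis is CPM, points are libraries and bars the mean ± SD of 3. HMGCS1 is lower with wild-type ETV6 and higher with R399C, LSS likewise, DHCR7 is lower with wild-type ETV6, and INSIG1, SREBF2 and NPC1 stand apart only with R399C.

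The transport genes that rose with R399C were NPC1, STARD4, ABCA1 and MYLIP. NPC1, which lifts cholesterol out of late endosomes (chromosome 18, 23506184 to 23586898, minus strand), was at 42.4, 39.1 and 39.4 CPM with tagBFP and 55.4, 55.8 and 51.4 with R399C, with no overlap (log2 fold change 0.43, SE 0.04, adjusted p = 2.1e-05). STARD4, a cytosolic sterol carrier and SREBP target, was at 26.6, 27.3 and 23.6 CPM against 20.7, 19.5 and 20, again without overlap (log2 fold change 0.36, SE 0.08, adjusted p = 0.00272). ABCA1, the exporter that loads cholesterol onto lipid-poor apolipoprotein, was at 92.1, 89.4 and 77.9 CPM with tagBFP, 84.1, 73.6 and 81.4 with wild-type ETV6 and 116.4, 116.4 and 100.4 with R399C. R399C libraries were higher than all controls (log2 fold change 0.36, SE 0.07, adjusted p = 0.00228), whereas the wild-type libraries overlapped them (log2 fold change -0.12, adjusted p = 0.236). MYLIP was at 39.3, 39.1 and 35.4 CPM with R399C against 31.6, 33.3 and 33.2 (log2 fold change 0.21, SE 0.05, adjusted p = 0.0044). The genes that rose thus include an SREBP target, STARD4, and 2 LXR targets, ABCA1 and MYLIP, which respond to opposite sterol states. ABCG1, the other LXR-driven exporter, passed neither test, with log2 fold changes of 0.17 and 0.06. NPC2, the soluble partner of NPC1, and NR1H2, which encodes LXR-beta, passed neither test and had log2 fold changes between 0.06 and 0.12.

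Several calls were lost when 1 library was left out, most with little change in the size of the difference. With wild-type ETV6, the call of HMGCS1 was lost without wild-type replicate 2 or 3 (log2 fold change -0.13 and -0.14, adjusted p up to 0.0637) and that of NSDHL without wild-type replicate 3 (-0.24, adjusted p = 0.0506). Calls outside the enzymes were also gained with wild-type ETV6. The smallest adjusted p with 1 library left out was 0.00836 for SREBF1, 0.048 for MYLIP and 0.0484 for ABCA1, all lower. For ABCG1, which was higher, it was 0.0319. Without tagBFP replicate 3, 2 regulators or transport genes were called lower. With R399C, the calls of MVK (lost without tagBFP replicate 2 or 3 or R399C replicate 2), LBR (tagBFP replicate 1 or 2, R399C replicate 2 or 3), HSD17B7 (tagBFP replicate 2 or 3, any R399C replicate), SREBF1 (tagBFP replicate 3, wild-type replicate 1, any R399C replicate) and SCAP (tagBFP replicate 1 or 2, R399C replicate 1) were lost, with adjusted p up to 0.116, 0.127, 0.103, 0.147 and 0.2. Where lost, the log2 fold change was 0.15 to 0.18 for MVK, 0.07 to 0.08 for LBR, 0.20 to 0.25 for HSD17B7, 0.07 (without tagBFP replicate 3) to 0.13 for SREBF1 and -0.11 to -0.07 (without R399C replicate 1) for SCAP. When changes in mean transcript length were taken into account, 8 enzymes stayed lower with wild-type ETV6 and 8 higher with R399C. With wild-type ETV6 the calls lost in that fit were those of HMGCS1 (-0.08, adjusted p = 0.269), NSDHL (-0.08, adjusted p = 0.632), MVK (-0.21, adjusted p = 0.139) and FDFT1 (-0.11, adjusted p = 0.105). With R399C they were those of MVK (0.24, adjusted p = 0.0785), LBR (0.13, adjusted p = 0.0923), HSD17B7 (0.36, adjusted p = 0.0525), SREBF1 (0.06, adjusted p = 0.413) and SCAP (-0.04, adjusted p = 0.69). MVK, ACAT2, NPC1, NPC2, NR1H2, FDFT1 and SREBF1 overlap genes on the other strand and TM7SF2 overlaps VPS51 on its own strand, so reads could be shared where strand was not used in counting. HSD17B7 and FDPS have pseudogenes that could take reads. The myeloid marker sum, mostly CSF1R, was 12 to 12.8 TPM with tagBFP, 19.7 to 23.8 with wild-type ETV6 and 14.5 to 17.3 with R399C, and the B-lineage sum was 2219 to 2277, 2991 to 3030 and 2971 to 3024 TPM. Their part in the sterol results was not tested.

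Set directly against each other, the 2 ETV6 forms differed in 23 of the 31 members, all lower with wild-type ETV6, where 9.29% of all genes were called lower and 12.1% higher. The count comprised 16 of 19 enzymes, 3 of 5 regulators (INSIG1, SREBF1 and SREBF2) and 4 of 7 transport and efflux genes (STARD4, NPC1, ABCA1 and MYLIP). The enzymes' median log2 difference, wild-type minus R399C, was -0.33, against 0.020 for all genes tested, whose median absolute difference was 0.11. Over all genes the balance of higher and lower calls depended on the fit. Of the calls, 56.5% were higher here, 46.8% with only the 2 groups fitted, and 42.5% to 59.8% with 1 library left out. ETV6 itself was also higher in the wild-type libraries (log2 fold change 0.38, SE 0.04, adjusted p = 2.5e-05), so the forms were not compared at equal transcript level. The gap was wider on the TPM scale, with ETV6 at 575.9 ± 3.71 TPM (SD, n = 3) with wild-type ETV6 and 326.5 ± 32.1 with R399C.

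DHCR7 had the largest difference, 1.6-fold lower with wild-type ETV6 (log2 fold change -0.68, SE 0.05, adjusted p = 3.2e-06). HMGCS1 (-0.63, SE 0.04, adjusted p = 1.6e-06) and LSS (-0.60, SE 0.04, adjusted p = 1.7e-06) followed among the enzymes. Next came MSMO1 (-0.55, SE 0.05, adjusted p = 3.1e-05) and CYP51A1 (-0.51, SE 0.04, adjusted p = 3.9e-06), both acting on lanosterol and its products. Of the regulators, INSIG1 differed by -0.58, SE 0.05, adjusted p = 1.3e-05, nearly as much as the leading enzymes, SREBF2 by -0.28, SE 0.04, adjusted p = 3.0e-04 and SREBF1 by -0.21, SE 0.04, adjusted p = 0.00473. Among the transport genes the log2 difference was -0.48 for ABCA1, -0.45 for STARD4, -0.35 for NPC1 and -0.33 for MYLIP. In 6 enzymes (CYP51A1, FDFT1, HMGCS1, LSS, MVK and SQLE) each form differed from tagBFP, in opposite directions. With transcript length taken into account this held for CYP51A1, LSS and SQLE, while HMGCS1 and FDFT1 kept the R399C call alone and MVK neither. In another 6 (ACAT2, DHCR7, EBP, FDPS, NSDHL and TM7SF2) only wild-type ETV6 did, and in 4 (HSD17B7, IDI1, MSMO1 and MVD) only R399C, of which NSDHL and HSD17B7 lost their calls in that fit.

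The enzymes that did not differ between the forms at this threshold were PMVK, LBR and SC5D. Their libraries ranged over 39.2 to 43.3 CPM for PMVK with both forms and 338.4 to 357.0 for LBR. The difference was -0.07, SE 0.05, adjusted p = 0.373 for PMVK and -0.01, SE 0.03, adjusted p = 0.864 for LBR. For SC5D, whose libraries overlapped, it was -0.19, SE 0.08, adjusted p = 0.112. INSIG2, SCAP, NPC2, ABCG1 and NR1H2 also did not pass, with log2 differences from -0.09 to 0.11. The call of HSD17B7 was lost without wild-type replicate 2 (adjusted p = 0.0505), and those of NSDHL and STARD4 once transcript length was taken into account. The other 20 calls held under all 15 alternatives tried.

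With ERG repressed, few of the enzymes were called. TM7SF2 rose and FDFT1 fell among the 19, where 6.89% of all genes were called higher and 7.74% lower, and the enzymes' median log2 fold change was 0.00. Their summed level was 1156 ± 22.1 TPM (SD, n = 3) in sgCtrl libraries and 1155 ± 10.1 in sgERG libraries. Of the regulators INSIG1 and INSIG2 fell, and of the transport and efflux genes ABCA1 rose and ABCG1 fell.

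INSIG1 was at 500.9, 497.4 and 500.5 CPM in sgCtrl libraries and 376.5, 377.5 and 370.2 in sgERG libraries. The SD within the groups was 1.91 and 3.95 CPM, and the fall was 1.33-fold (log2 fold change -0.41, SE 0.03, adjusted p = 1.8e-05). INSIG2 fell as well, from 33, 28.6 and 32.9 CPM to 26.7, 26.6 and 21.1 (log2 fold change -0.34, SE 0.10, adjusted p = 0.0371). Neither SREBF2 nor SCAP, the other components of sterol sensing, passed the test (log2 fold change -0.03 and -0.01). SREBF1 was at 763.6, 775.4 and 740.1 CPM against 659.8, 680.2 and 759.4, where sgERG replicate 3 lay among the controls (log2 fold change -0.12, SE 0.05, adjusted p = 0.165).

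The exporters ABCA1 and ABCG1, both LXR targets, moved in opposite directions. ABCA1 (chromosome 9, 104781002 to 104928237, minus strand) was at 231.2, 228.4 and 224.3 CPM in sgCtrl libraries and 301.1, 295.3 and 285.8 in sgERG libraries, all higher (log2 fold change 0.37, SE 0.04, adjusted p = 9.6e-05). ABCG1, which passes cholesterol to lipoprotein particles (chromosome 21, 42199689 to 42297244, plus strand), was at 158.4, 152.0 and 148.3 CPM and 97.3, 94.1 and 102.3 CPM, all lower, by 1.56-fold (log2 fold change -0.64, SE 0.05, adjusted p = 7.3e-06). MYLIP, another LXR target, did not pass the test (log2 fold change 0.10, adjusted p = 0.373), nor did NR1H2 (0.10, adjusted p = 0.223). STARD4 and NPC1 were lower in all sgERG libraries without passing it (-0.21, SE 0.07, adjusted p = 0.0586, and -0.15, SE 0.05, adjusted p = 0.0809).

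**Figure D4:**
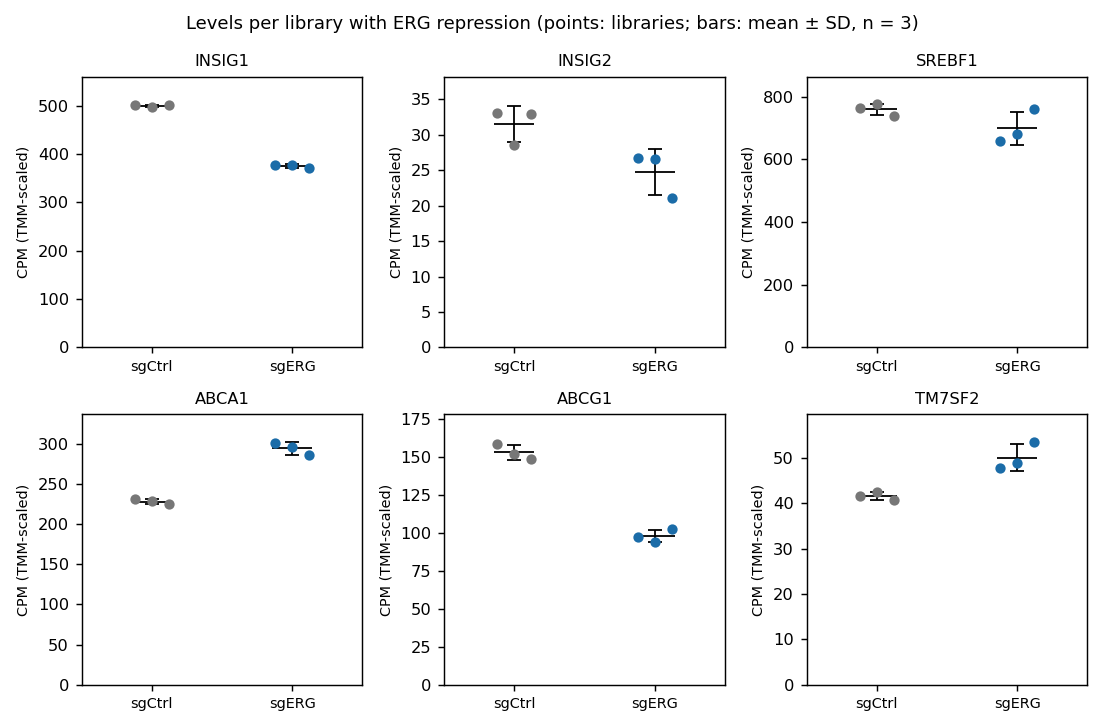
Level of 6 members in each library of the ERG experiment: the y axis is CPM, points are libraries and bars the mean ± SD of 3. INSIG1 and ABCG1 are lower and ABCA1 higher in all 3 sgERG libraries, INSIG2 and TM7SF2 differ by less, and the SREBF1 groups overlap.

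Of the enzymes, TM7SF2 was at 41.7, 42.4 and 40.8 CPM in sgCtrl libraries and 47.8, 48.8 and 53.5 in sgERG libraries (log2 fold change 0.27, SE 0.06, adjusted p = 0.00902), and FDFT1 at 191.6, 204.9 and 200.8 and 181.9, 175.7 and 182.5 (log2 fold change -0.14, SE 0.04, adjusted p = 0.0383). HMGCS1 and CYP51A1 were lower in all 3 sgERG libraries but did not pass the test (-0.15, SE 0.06, adjusted p = 0.123, and -0.16, SE 0.06, adjusted p = 0.0957). The remaining 15 enzymes had log2 fold changes between -0.12 and 0.13. sgERG replicate 3 was the library with the lowest HMGCS1 and CYP51A1 and the highest TM7SF2. Without it 1 enzyme was higher and 2 were lower, and 4 of the other members were lower in place of 3, with SREBF1 (log2 fold change -0.18) and DHCR7 (-0.15) added. INSIG1 then had a log2 fold change of -0.41 (adjusted p = 5.3e-06), ABCA1 0.39 (1.2e-05), ABCG1 -0.67 (1.8e-06), INSIG2 -0.24 (0.0447), TM7SF2 0.22 (0.00872) and FDFT1 -0.15 (0.0165). The call of FDFT1 was lost when any other library was left out (adjusted p up to 0.154), that of INSIG2 without sgCtrl replicate 1 or 3 (up to 0.147) or with transcript length taken into account (0.0575) and that of TM7SF2 without sgCtrl replicate 3 (0.0522). The calls of INSIG1, ABCA1 and ABCG1 held under all 11 alternatives. The B-lineage marker sum was 2484 to 2548 TPM with sgCtrl and 2251 to 2338 with sgERG, and the stromal sum, mostly COL1A1, was 21 to 28 and 28.7 to 33.2, with COL3A1 at 0 throughout. Their part in these results was not tested.

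Around the members, 53 further genes of the pathway were followed in 5 lists, of which 50 were tested in the ETV6 experiment and 51 in the ERG experiment. With wild-type ETV6 8 rose and 10 fell, and with R399C 7 rose and 9 fell, shares near those of all genes given above. The list of SREBP processing and sterol-regulated degradation (11 genes) held 3 genes that rose and 4 that fell with wild-type ETV6, and 3 of each with R399C. ERLIN2, an endoplasmic reticulum protein of that degradation route, was at 40.5, 41.5 and 41.9 CPM with tagBFP, 49.2, 47.4 and 50.5 with wild-type ETV6 and 46.2, 48.2 and 47.9 with R399C (log2 fold change 0.25, SE 0.04, adjusted p = 3.3e-04, and 0.20, SE 0.04, adjusted p = 0.00126). PGRMC1, a haem-binding membrane protein, changed by -0.25 and -0.38 on the log2 scale. C12orf49, needed for SREBP cleavage, was at 44.1, 42.1 and 40.6 CPM with tagBFP, 48.5, 45.9 and 46.1 with wild-type ETV6 and 51.8, 54.6 and 52.7 with R399C. The log2 fold change was 0.33, SE 0.04, adjusted p = 8.6e-05 with R399C and 0.15, SE 0.04, adjusted p = 0.0175 with wild-type ETV6, and the forms differed by -0.18, SE 0.04, adjusted p = 0.0107. The wild-type call was lost without tagBFP replicate 2 or 3 or wild-type replicate 1 or 2 (adjusted p up to 0.129). With transcript length taken into account the wild-type difference (adjusted p = 0.263) and that between the forms (adjusted p = 0.077) did not pass.

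In the branches from farnesyl diphosphate (11 genes), 3 genes fell with each form and none rose, where 18.9% of all genes were called lower with wild-type ETV6 and 22.1% with R399C. Of these, FNTB with wild-type ETV6 and DHDDS with R399C lost their calls in most of the alternatives tried, DESeq2 and RLE scaling among them. PDSS1, which builds the tail of ubiquinone, was at 30.2, 31 and 33.1 CPM with tagBFP, 24.2, 24.2 and 23 with wild-type ETV6 and 20.2, 22 and 22.7 with R399C. It was lower with both (log2 fold change -0.40, SE 0.06, adjusted p = 2.0e-04, and -0.54, SE 0.06, adjusted p = 2.0e-05), whereas none of the synthesis enzymes was called lower with R399C. RABGGTB, a subunit of the enzyme that prenylates Rab proteins, changed by -0.25 and -0.38. In the list of acetyl-CoA supply and other SREBP targets (9 genes), ACSS2, which makes acetyl-CoA from acetate, was at 12.2, 12.6 and 12.4 CPM with tagBFP, 19.3, 16.1 and 17 with wild-type ETV6 and 21.4, 17.2 and 18.4 with R399C (log2 fold change 0.49, SE 0.09, adjusted p = 0.00123, and 0.62, SE 0.09, adjusted p = 2.0e-04). Once transcript length was taken into account its change was -0.03 and 0.20, and neither passed the test. The mitochondrial citrate carrier SLC25A1 was lower with wild-type ETV6 than with tagBFP (-0.19, SE 0.04, adjusted p = 0.00158) and than with R399C (-0.28, SE 0.04, adjusted p = 2.8e-04). Its difference between R399C and tagBFP did not pass the test.

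Of 13 genes for esterification and sterol carriage, NCEH1, a cholesteryl ester hydrolase, rose with wild-type ETV6 from a very low level, 0.285, 0.43 and 0.127 CPM, to 2.35, 3.2 and 2.91 (log2 fold change 3.28, SE 0.59, adjusted p = 0.00109). It was at 0.695, 0 and 0.692 CPM with R399C, and with transcript length taken into account the log2 fold change with wild-type ETV6 was 0.44 (adjusted p = 0.74). OSBP, which exchanges cholesterol for a phosphoinositide at membrane contacts, was at 108.1 ± 0.702 CPM (SD, n = 3) with tagBFP, 109.8 ± 2.56 with wild-type ETV6 and 126.3 ± 2.57 with R399C, which passed the test (log2 fold change 0.22, SE 0.03, adjusted p = 8.4e-05). Of the oxysterol and LXR-linked genes, 6 of 9 were tested, and ABCA7, a relative of ABCA1, was the 1 called. It was at 63.7, 65.1 and 57.9 CPM with tagBFP, 79.3, 79.9 and 86.2 with wild-type ETV6 and 119.9, 111.3 and 101.3 with R399C (log2 fold change 0.39, SE 0.06, adjusted p = 5.7e-04, and 0.83, SE 0.06, adjusted p = 1.8e-06). It was higher with both forms and higher with R399C than with wild-type ETV6 (wild-type minus R399C, -0.44, SE 0.06, adjusted p = 5.1e-04), though this last difference did not pass with transcript length taken into account (adjusted p = 0.108).

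With ERG repressed, 1 of the 51 tested rose and 5 fell, where 6.89% of all genes were called higher and 7.74% lower. ERLIN2, higher with both ETV6 forms, was lower here, at 44.6, 42.8 and 43.9 CPM against 56.8, 57 and 58.6 (log2 fold change -0.39, SE 0.04, adjusted p = 2.2e-04). GRAMD1B, which carries cholesterol from the plasma membrane, changed by -0.25, SE 0.05, adjusted p = 0.00982 and SOAT1, which esterifies cholesterol for storage, by -0.25, SE 0.06, adjusted p = 0.0247. The call of GRAMD1B was lost without sgCtrl replicate 1 (adjusted p = 0.0593) and that of SOAT1 without sgCtrl replicate 1 or 3 or sgERG replicate 1 (up to 0.118). With transcript length taken into account both were lost, at -0.13 (adjusted p = 0.308) for GRAMD1B and -0.09 (adjusted p = 0.623) for SOAT1. Among the LXR-linked genes tested, 7 of 9, none was called.

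The 2 control populations were also set side by side on the TPM scale, without a test. They differed at least in vector, sorting, induction time and read depth, which cannot be told apart. In 14 of the 19 enzymes every sgCtrl library was below every tagBFP library, in 3 (CYP51A1, TM7SF2 and LBR) above, and the median ratio of sgCtrl to tagBFP was 0.76. ACAT2 was at 14.4 ± 0.808 TPM (SD, n = 3) with tagBFP and 4.51 ± 0.992 with sgCtrl, MVD at 84.3 ± 0.0487 and 29.6 ± 2.86, and HMGCS1 at 95.4 ± 2.91 and 46.8 ± 2.02. The regulators lay on the other side: all 5 were higher in sgCtrl libraries, with a median ratio of 1.64. SREBF1 was at 259.3 ± 14.5 TPM with tagBFP and 538.7 ± 10.5 with sgCtrl, where it was the highest of the 31 members. ABCG1, at 14.1 ± 1.13 and 75.4 ± 2.17 TPM, and ABCA1, at 8.4 ± 0.905 and 28.2 ± 0.425, had the largest ratios (5.36 and 3.36), and 6 of the 7 transport and efflux genes were higher. Over the 12408 genes with a mean of at least 1 TPM, 43.9% were higher in sgCtrl libraries, 33.5% lower, and the median ratio was 1.08. The ERG and ETV6 comparisons thus had controls with different sterol gene levels.

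**Figure D5:**
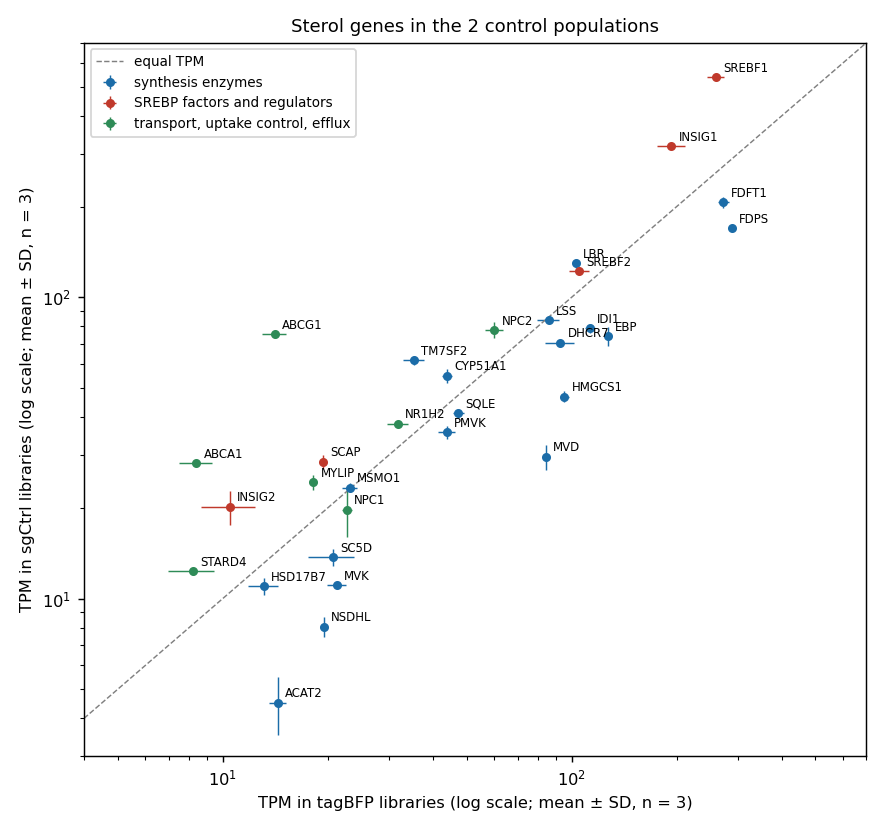
Mean TPM ± SD (3 libraries) of the 31 members in tagBFP (x axis) and sgCtrl (y axis) libraries, both on log scales, coloured by role, with a dashed line of equal TPM. Most enzymes lie below the line, the 5 regulators above it, and ABCG1 and ABCA1 farthest above it.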

How the data were processed

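RNA-seq of 15 Reh libraries was analysed from the deposited Salmon tables, which hold, per the file headers, each transcript's length, effective length, TPM and estimated count of reads. The submitters' processing notes name Salmon 0.11.3 and the build hg38. No source used here states the strand setting or describes the transcript set. The labels' protocols name a directional library kit. The authors' estimated counts were summed over transcripts of each GENCODE 29 gene and rounded. Transcripts were matched by identifier, which took in 90.3% of 167268 transcripts and left out 6.67% to 7.56% of reads. The authors' TPM values were summed likewise and used for levels between genes and between experiments. Each experiment was fitted by itself with edgeR 4.0.16 (R 4.3.3) after TMM scaling and filterByExpr, with the quasi-likelihood test, and p-values were adjusted by Benjamini-Hochberg across every gene in the fit. The biological coefficient of variation was 4.95% and 6.24%. A gene was called at an adjusted p under 0.05. The script was tested on simulated data. The alternatives were DESeq2 1.42.0, RLE scaling, no low-count filter, a transcript length offset, a replicate block, only the 2 groups compared, and leaving out each library. All 31 members are named, and from each further list up to 4 genes per comparison that passed, smallest p first. The members and lists were chosen with earlier results of these data known.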

Additional observations from a re-analysis of the deposited data

How the results depend on the processing

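Of the members' calls, 8 of 12 with wild-type ETV6, 14 of 19 with R399C and 20 of 23 between the forms held under all 15 alternatives, and 3 of 6 with sgERG held under all 11, and no member's called change reversed. The transcript length offset gave 2913 calls over all genes with wild-type ETV6 (5202 without it), 3427 with R399C (5826) and 1236 between the forms (3044). It left 2 higher and 6 lower pathway genes beyond the members with wild-type ETV6, 4 and 3 with R399C, 3 and 3 between the forms, and 0 and 1 with sgERG, gave 1 higher and 1 lower transport gene or regulator with wild-type ETV6 (NPC1 and SREBF1) and 0 lower with R399C, and turned ACSS2 with wild-type ETV6 to -0.03. DESeq2, the unfiltered fit and the fit of only the 2 groups each gave 3 higher pathway genes between the forms. DESeq2 and the unfiltered fit gave 0 lower regulators with R399C, and the unfiltered fit gave 1 with wild-type ETV6 and 2 higher pathway genes with sgERG. Same-numbered libraries did not deviate together (correlations from -0.077 to 0.098), so the numbers were not taken as a pairing. With the replicate block, sgERG had 0 lower enzymes, 0 higher pathway genes and 3 lower ones. With 1 library left out, calls over all genes ran from 2008 (without R399C replicate 1) to 3236 between the forms and from 1160 (without sgCtrl replicate 1) to 2302 with sgERG, and fell to 2009 without wild-type replicate 2 and 1162 without sgCtrl replicate 3. Regulators and transport genes then numbered 0 to 1 higher and 0 to 2 lower with wild-type ETV6 and 0 to 1 lower with R399C, enzymes 0 to 1 higher and 0 to 2 lower with sgERG, and pathway genes 5 to 8 higher and 8 to 11 lower with wild-type ETV6, 7 to 9 and 5 to 9 with R399C, 2 to 4 and 4 to 9 between the forms, and 0 to 2 and 1 to 7 with sgERG. The SREBF1 transcripts from other starts gave -0.04 (wild-type ETV6 against tagBFP) and -0.16 (between the forms) in depth-scaled reads, in place of -0.20 and -0.26 in TPM. The cause of these shifts was not tested.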

Other observations

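SREBF1 has alternative first exons, and its transcripts were grouped by annotated start, a grouping chosen after the annotation was seen. The 2 transcripts from the upstream start (chromosome 17, 17836987 to 17837002 on hg38) were at 85.1, 85 and 73.5 TPM with tagBFP, 75.9, 74.2 and 77.2 with wild-type ETV6, and 94.9, 97 and 90.1 with R399C. Every R399C library was above every tagBFP and wild-type library. The log2 ratio was 0.21 against tagBFP (2-sided exact permutation test, p = 0.1) and -0.31 for wild-type ETV6 against R399C (exact p = 0.1), the smallest p that 3 against 3 libraries allow. The 3 transcripts from a second start (17823594 to 17823618) were at 27.7, 32.4 and 30.2 TPM with tagBFP and 118.6, 119.4 and 110.5 with sgCtrl. They made up 11.6% of the gene's TPM with tagBFP and 21.6% with sgCtrl, in 2 experiments that differed at least in vector, sorting and induction time. With sgERG the upstream transcripts were at 163.4, 165.9 and 182.3 TPM against 175.8, 182.2 and 166.9 with sgCtrl, an overlap (exact p = 0.6), while the 18 transcripts from other starts were at 206.0, 209.8 and 197.5 against 252.6, 225.3 and 264.7 (log2 ratio -0.28, exact p = 0.1). Salmon shares reads among transcripts with common exons, so these levels are less certain than the gene's sum.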
